A study of Danio rerio with 4 samples.

Results

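The genes described here are 8 regulators of muscle commitment and differentiation, chosen by their symbols (myod1, myf5, myf6, myog, mef2ca, mef2d, six1b and mymk) from the 25522 genes of a zebrafish Ribo-seq table, by a rule that uses no measured value, although the set was put together with earlier results of these data known. Each symbol matched 1 gene, and all 8 passed the minimum of a mean of 1 CPM (reads per 1000000 reads counted), as did 18127 genes in all. The material was labelled as brain tissue, whole brain cells, of fish with the genotype nop2 mutant and of fish with the genotype nop2 sibling. Nop2 is a nucleolar RNA methyltransferase of ribosome assembly, the nop2 allele was not named in the labels, and siblings were not split by genotype there. The titles give an age of 48 days after fertilization and the design text 48 hours, so the age is uncertain. Ribo-seq counts footprints, the stretches of messenger RNA shielded by ribosomes during nuclease digestion. With 1 library per genotype, the differences below lack any replicate and no test was possible.

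Skeletal muscle forms when progenitors are committed by basic helix-loop-helix (bHLH) transcription factors, the myogenic regulatory factors Myf5, MyoD, Myogenin and Mrf4 (the product of myf6), which pair with E proteins and bind E-box sequences. Myf5 and MyoD act first, in committed myoblasts, and Myogenin follows as they leave the cell cycle and differentiate. Mef2 proteins of the MADS-box class act with them on genes of the contractile apparatus, and the membrane protein Myomaker (mymk) lets myoblasts fuse into fibres. Some of these genes are not confined to muscle. Mef2 genes are used in neurons, heart and cranial neural crest, and six1b in the ear, nose and lateral line placodes. Skeletal muscle is not part of the brain, although its genes were abundant in both libraries.

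The libraries held 20696345 sibling and 18884879 mutant footprint reads, so 1 read was worth 0.0483 and 0.0530 CPM. The mutated gene nop2 had a sibling level of 31.7 CPM and a mutant level of 2.17 CPM. All 13 matched neuron markers were measured, with sums of 2314 sibling and 1916 mutant CPM and none at 0. The 59 matched genes of the muscle product list, such as myosins, actins and troponins, took 9.29% of sibling and 3.41% of mutant reads. No total RNA was analysed, so a footprint ratio holds both transcript abundance and ribosome load, and in bulk tissue fewer cells of a type cannot be told apart from less RNA per cell.

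The members went both ways, as did all genes. The early commitment gene myf5 and the homeobox gene six1b carried more footprints in the mutant library. The commitment gene myod1 and the differentiation gene myf6 differed by less than counting error. The differentiation and fusion genes myog, mef2ca and mymk carried fewer, as did mef2d by a smaller margin. With 8 genes, the counts below are too small to set the members apart from all genes. Of the 8 members, 1 (myf5) lay 2-fold or more above the sibling level and 1 (mymk) 2-fold or more below it, beside 4.72% and 5.70% of all 18127 genes. The median log2 ratio of the members was -0.44 and that of all genes -0.06. Estimated counts of 5 members (myod1, myf6, mef2ca, mef2d and six1b) held fractions of reads, so reads shared with related or overlapping genes leave their values uncertain. Counting intervals, which cover the sampling of reads and not biological variation, lay above 0 for 2 members and below 0 for 4, beside 25.2% and 31.9% of all genes. Of all genes, 856 passed 2-fold upward and 1034 downward, and with library totals that leave out the muscle product reads the split was 676 to 1244.

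**Figure D1:**
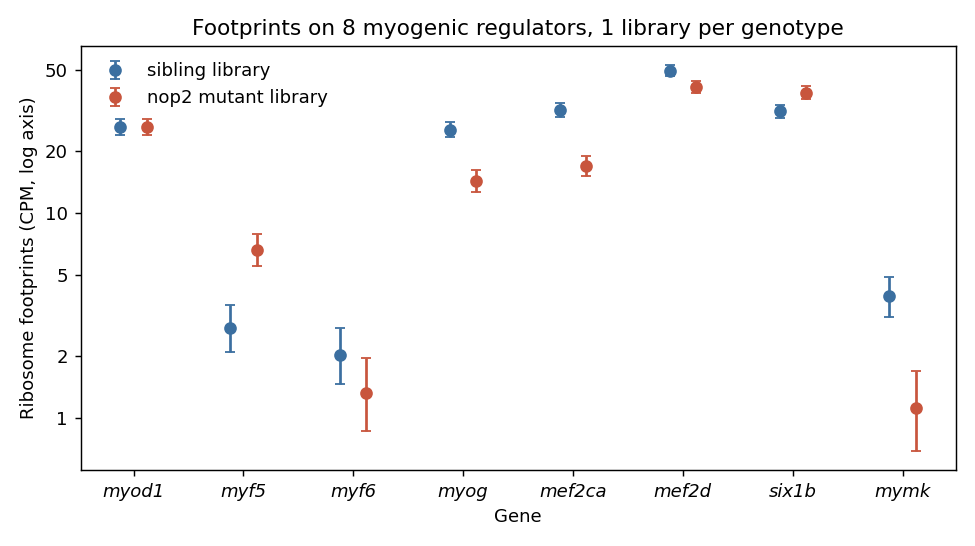
Footprints on each member in CPM on a log axis, with 1 point per library and bars for the 95% Poisson counting interval. The points of myod1 lie level at 26.3 and 26.2 CPM, the mutant point is above the sibling point for myf5 and six1b, and it is below for the others, farthest for mymk.

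Among the bHLH commitment genes, myf5 (ENSDARG00000007277) had 57 sibling and 125 mutant reads, or 2.75 and 6.62 CPM. This was a log2 ratio of 1.26 (95% counting interval 0.80 to 1.74), the highest among the members and above that of 97.5% of all genes measured. In contrast, myod1 (ENSDARG00000030110) had 544 and 495 reads, or 26.3 and 26.2 CPM. Its log2 ratio of -0.0039 (-0.18 to 0.17) held no difference beyond counting error, and its sign turned with scaling, to 0.05 with TMM factors. The ratios of myf5 and myod1 lay apart by 1.26 on the log2 scale (0.77 to 1.78).

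Among the bHLH differentiation genes, myog (ENSDARG00000009438), which encodes Myogenin, had 528 sibling and 270 mutant reads, or 25.5 and 14.3 CPM. Its log2 ratio was -0.83 (-1.05 to -0.62), or 1.78-fold lower in the mutant library. The gene myf6 (ENSDARG00000029830), whose product is known as Mrf4 or herculin and is tied to later muscle differentiation, was scarce, with 42 and 25 reads, or 2.03 and 1.32 CPM. Its log2 ratio of -0.60 had a counting interval from -1.39 to 0.13, so that a difference was not detectable at this depth. The neighbouring genes myf5 and myf6, which stand next to each other in the RefSeq annotation of GRCz12tu, had ratios 1.86 apart on the log2 scale, and the interval of the odds ratio of their 4 counts ran from 0.98 to 2.79. In that annotation the span of myf6 also overlaps the ribosomal protein gene rps16, which had 326 and 567 CPM and a log2 ratio of 0.80, and whether reads were shared between them was not tested.

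The 4 bHLH genes together had 1171 sibling and 915 mutant reads, a log2 ratio of -0.22 (-0.35 to -0.10), while the make-up of the family differed more. By TPM, the authors' value scaled by gene length and library, myog held 46.4% of the family's sibling sum and 30.4% of its mutant sum. The share of myf5 was 5.35% and 15.0%, that of myod1 44.3% and 51.6%, and that of myf6 3.94% and 3.02%. Thus myog and myod1 stood side by side in the sibling library (30.6 and 29.2 TPM), and myod1 stood above myog in the mutant library (28.0 and 16.5 TPM). Over all 137 genes annotated as bHLH in the deposited table, 114 were measured, with 11 past 2-fold upward, 18 past 2-fold downward and a median log2 ratio of -0.11. Of all genes measured, 4.72% passed 2-fold upward and 5.70% downward.

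Among the Mef2 genes, mef2ca (ENSDARG00000029764) had 656 sibling and 321 mutant reads, or 31.7 and 17.0 CPM, a log2 ratio of -0.90 (-1.10 to -0.70). The most abundant member, mef2d (ENSDARG00000040237), had 1023 and 776 reads, or 49.4 and 41.1 CPM, a log2 ratio of -0.27 (-0.40 to -0.13). The difference between them was 0.63 on the log2 scale (0.39 to 0.87). The closest relative of mef2ca, mef2cb, had 33.7 and 22.8 CPM and a log2 ratio of -0.57 (-0.74 to -0.39). This ratio was 0.33 (0.07 to 0.60) above that of mef2ca. Estimated counts of both copies held fractions of reads, so reads shared with related genes leave this gap uncertain. By TPM, mef2cb stood at 29.3 and 22.1 and mef2ca at 30.5 and 16.0. Summed over both copies, mef2c footprints gave a log2 ratio of -0.72 (-0.85 to -0.59). The gene mef2aa stood at 22.1 and 17.4 CPM with a log2 ratio of -0.34 (-0.55 to -0.13), and mef2b had 13 and 8 reads and was under the minimum. A further gene annotated as MEF2A, not in the related lists, had 42 and 25 reads and a log2 ratio of -0.60 (-1.39 to 0.13). All 7 measured genes of the MADS-box class, annotated as SRF family in the deposited table and including srfa and srfb, had a log2 ratio below 0, with none past 2-fold, and with TMM or DESeq2 scaling 6 of the 7 did. By comparison, 55.1% of all genes measured had a log2 ratio below 0, and 50.3% did with TMM or DESeq2 scaling. The intervals of srfb (-0.01, from -0.48 to 0.45) and MEF2A held 0.

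The homeobox gene six1b (ENSDARG00000026473) had 647 sibling and 728 mutant reads, or 31.3 and 38.5 CPM. Its log2 ratio of 0.30 (0.15 to 0.46) was small and above counting error. Its copy six1a had 11.4 and 11.2 CPM and a log2 ratio of -0.02 (-0.30 to 0.25), 0.32 below that of six1b with an interval from 0.0085 to 0.64. The gene six4b, next to six1b in the GRCz12tu annotation, stood at 9.52 and 9.11 CPM with a log2 ratio of -0.06, 0.37 below that of six1b (0.02 to 0.71). In that annotation six1b also overlaps the kinase gene prkchb, which had 61 and 68 reads. Over 251 genes annotated as homeobox, 210 were measured, with a median log2 ratio of -0.01. Of these 210 genes 14 passed 2-fold upward and 17 downward, beside 4.72% and 5.70% of all genes.

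The fusion gene mymk (ENSDARG00000103988) had 81 sibling and 21 mutant reads, or 3.91 and 1.11 CPM. Its log2 ratio of -1.79 (-2.58 to -1.11), or 3.46-fold lower in the mutant library, was the lowest among the members, and 1.89% of all genes measured lay below it. Its counts were whole numbers, as were those of myf5 and myog. In the GRCz12tu annotation its span overlaps that of ttc16.

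**Figure D2:**
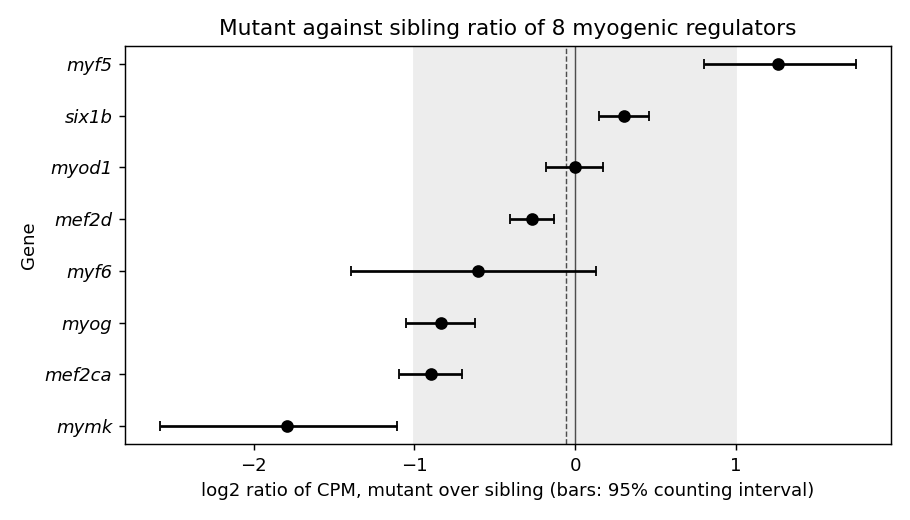
Log2 ratio of CPM, mutant over sibling, for each member (points) with the 95% counting interval (bars), and the grey band marking less than 2-fold. The dashed line is the median of all genes measured at -0.06, and the order runs from mymk at -1.79 to myf5 at 1.26.

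The 28 pairs of members were compared through the odds ratio of their 4 counts. The exact interval left out 0 on the log2 scale for 23 pairs and held 0 for 5. The intervals of myf5, six1b and mymk each left out 0 in all 7 of their pairs. Of the 5 pairs that held 0, 4 involved the scarce myf6, and the fifth was myog with mef2ca, whose ratios differed by 0.06 (-0.23 to 0.36). These intervals were not adjusted for the number of pairs. The matching share over pairs of all genes was not computed, so the count of 23 cannot be called particular to the members.

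Levels can be ordered between genes by TPM, since it is scaled by length. In the sibling library mef2d stood highest at 42.6 TPM, and its Poisson interval did not overlap that of six1b at 33.7 TPM. Then came myog at 30.6, mef2ca at 30.5 and myod1 at 29.2 TPM, and from six1b to myod1 the intervals of neighbours overlapped. A gap followed to mymk at 5.39, myf5 at 3.53 and myf6 at 2.60 TPM, whose neighbouring intervals overlapped. In the mutant library six1b stood highest at 39.9 TPM, apart from mef2d at 31.6, which overlapped myod1 at 28.0 TPM. Both myog (16.5) and mef2ca (16.0 TPM) lay below these and overlapped each other. At the low end, myf5 at 8.15 TPM stood apart from both its neighbours, and myf6 at 1.63 and mymk at 1.47 TPM overlapped. Among all genes measured, the sibling TPM of mef2d lay above 84.3% and that of myf6 above 20.2%. The sum over the members was 178 sibling and 143 mutant TPM. The 3 genes nearest to the median position of the members in log2 TPM of both libraries were foxc1b (29.9 and 16.2 TPM), plxna2 (29.1 and 16.9 TPM) and sox6 (31.2 and 16.1 TPM), a likeness over 2 libraries shared by 438 genes within 0.5 log2 units. That median position, 29.8 and 16.2 TPM, lay close to myog and mef2ca and far from myf5, myf6 and mymk.

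**Figure D3:**
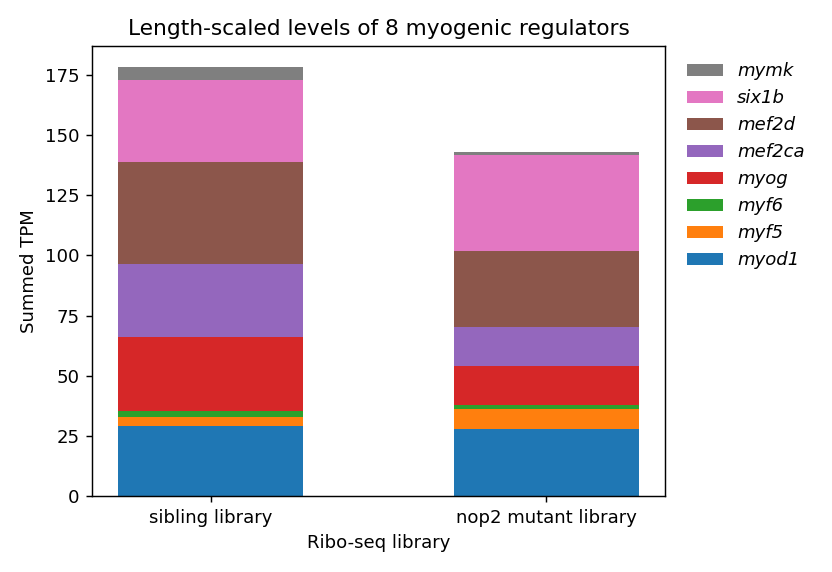
Stacked TPM of the 8 members in each Ribo-seq library, 1 bar per library. The bars reach 178 and 143 TPM. In the mutant library the segments of myf5 and six1b are larger, those of myog, mef2ca, mef2d, myf6 and mymk smaller, and that of myod1 slightly smaller.

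Genes of the muscle product list, which also holds receptor and synapse genes such as chrna1 and musk, mostly carried fewer footprints in the mutant library. Of them 49 were lower and 9 higher, beside 55.1% of all genes lower. Of 58 measured genes of the muscle product list 30 passed 2-fold downward and 1 upward, beside 5.70% and 4.72% of all 18127 genes. The median log2 ratio of the list was -1.05, below the ratios of 7 of the 8 members. Since at most 5.70% of all genes lay below that median, the count of 7 says nothing particular to the members. The summed level of the muscle product genes was 92950 sibling and 34094 mutant CPM, a log2 ratio of -1.45. The fast myosin gene myhz1.1, the most abundant of them, had a log2 ratio of -1.48 and the mitochondrial creatine kinase gene ckmt2a one of -4.49 (69.7 and 3.07 CPM). The slow myosin gene smyhc1 went the other way, with 268 and 886 CPM and a log2 ratio of 1.73. The estimated counts of all 3, members of families of similar genes, held fractions of reads. The slow troponin C gene tnnc1b, picked after its value was seen, stood at 61.7 and 120 CPM, a log2 ratio of 0.96, while the slow myosin genes smyhc2 and smyhc3, picked likewise, stood at -0.97 and -0.72.

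Set against the summed muscle product reads, 7 of the 8 members had a higher ratio than the sum, beside 97.1% of all genes measured, so this count says nothing particular to the members. For each 1000000 product reads, myod1 had 283 sibling and 769 mutant reads and myf5 had 29.6 and 194 reads. The number for myog was 274 and 419 reads, and for mef2ca 341 and 499 reads. Only mymk went the other way, with 42.1 and 32.6 reads, and the counting interval of its log2 difference from the product sum, -0.34, ran from -1.14 to 0.34. The intervals of the other 7 lay above 0, beside 93.4% of all genes, and that of myf6 began at 0.05. This comparison rests on a sum in which a few myosin genes hold much of the reads.

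Progenitor genes of muscle were divided. Of 14 measured genes of the muscle progenitor and somite list 1 passed 2-fold downward and none upward, beside 5.70% and 4.72% of all genes. The list's median log2 ratio was 0.04, which turned to -0.05 with totals without muscle product reads and to -0.04 with the authors' TPM ratio. The T-box gene tbx1 of pharyngeal muscle progenitors, picked after its value was seen, stood at 0.28. The highest ratio was that of lbx1b (0.47, interval -0.07 to 1.03) and the lowest that of meox2b, a somite homeobox gene, with 2.61 and 0.265 CPM (-3.18). The paired box genes pax7a (-0.67) and pax7b (-0.38), which mark muscle stem cells and also dorsal brain, and pax3a (0.05) were picked after their values were seen. The early somite genes tbx6 and msgn1 had 0 reads in the sibling library, and tbx6 also in the mutant library, where counts of 0 allow levels of up to 0.145 CPM (sibling) and 0.159 CPM (mutant).

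Partners and inhibitors of the bHLH members had a median log2 ratio of -0.18 over 15 measured genes (-0.09 with a minimum of 10 CPM). The Id genes, whose products bind E proteins and so keep bHLH factors from DNA, went both ways. The most abundant, id1, had 349 and 448 CPM (0.36), and id3 had 62.8 and 110 CPM (0.81), whereas id2a, picked after its value was seen, had a log2 ratio of -0.67. The E protein genes tcf3a (-0.05, interval -0.17 to 0.07), tcf3b (-0.13) and tcf12 (-0.18), also picked afterwards, differed little, and the gene annotated as TCF4 had 27.5 and 9.11 CPM (-1.59). Id and E protein genes are expressed in many brain cells, and the share of these reads that came from muscle was not tested.

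Of 10 measured MEF2 cofactors 7 had a log2 ratio below 0, beside 55.1% of all genes measured, with a median of -0.29. Of these cofactors 1 passed 2-fold downward and none upward, beside 5.70% and 4.72% of all genes. The arginine methyltransferase gene carm1 was the most abundant (-0.13), the acetyltransferase gene kat2b the lowest (7.20 and 3.39 CPM, -1.08) and the kinase gene mapk14a the highest (0.24). Of 11 measured relatives of mef2ca and six1b and their eya and dach partners, 10 had a log2 ratio below 0. With TMM or DESeq2 scaling 9 did, beside 50.3% of all genes. None of these relatives and partners was past 2-fold. Their median was -0.23, from mef2cb at -0.57 to the transcription cofactor gene eya2 at 0.13. The most abundant was the corepressor gene dacha (-0.23).

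Regulators of fibre type and myofibril assembly had a median of -0.32 over 15 measured genes (-0.60 with a minimum of 10 CPM). Of these regulators 3 passed 2-fold downward and none upward, beside 5.70% and 4.72% of all genes. The slow fibre regulator prdm1a, which is also used in retina and neural crest, had 25.3 and 9.43 CPM (-1.42). The other genes past 2-fold, picked after their values were seen, were stac3 (-1.10), a part of excitation-contraction coupling, and klhl41b (-1.30), a sarcomere assembly factor. The chaperone gene hsp90aa1.2 was the most abundant (0.47) and the cofactor gene vgll2b the highest (1.64 and 2.81 CPM, 0.77). The fast fibre regulator sox6 (-0.90) and the myosin chaperone gene unc45b (0.36) were picked after their values were seen. Of 11 measured genes of myoblast fusion and adhesion none was past 2-fold, and their median was -0.11 (from -0.20 to -0.06 over the alternatives), beside -1.79 for mymk. There cdh2 was the most abundant (364 and 303 CPM, -0.27), while mymk had 3.91 and 1.11 CPM. The highest was dock5, a guanine nucleotide exchange factor gene (0.79), and the lowest the laminin gene lamc3 (-0.76). The share of the list's reads that came from muscle was not tested. The most specific partner of mymk, mymx, was not matched to a symbol and was not analysed here.

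Markers of other tissues that use these regulators also differed between the libraries. Heart markers were mostly higher, with a median log2 ratio of 0.93 and summed levels of 315 and 465 CPM. Of 12 measured heart markers 4 passed 2-fold upward and 1 downward, beside 4.72% and 5.70% of all genes. The atrial myosin gene myh6 had 45.2 and 119 CPM (1.40), nppb had a log2 ratio of 1.64 and myh7 of -1.09. Neuron markers had a median of -0.29, with 10 of 13 below 0, beside 55.1% of all genes. Among them elavl3 stood at 0.04, map1b at 0.10 and snap25b at -0.98. Pharyngeal cartilage and neural crest markers had a median of -0.21 over 13 measured genes, from matn1 at -6.93 to edn1 at 0.82. Of these genes 7 were lower and 6 higher, beside 55.1% of all genes lower. Their sums were 2210 and 1553 CPM, of which col2a1a (-0.52) alone held 1836 and 1279 CPM. Of 11 measured otic, olfactory and lateral line markers 2 passed 2-fold upward and none downward, beside 4.72% and 5.70% of all genes. The median of these markers was -0.10 (from -0.27 to -0.05 over the alternatives), with 6 lower and 5 higher, beside 55.1% of all genes lower. They ran from s100s at -0.85 to atoh1a at 1.27, with stm at -0.65. Their sums were 653 and 739 CPM. Of these sums pvalb9, picked after its value was seen, held 139 and 286 CPM (1.04), and stm 296 and 188 CPM. No marker of these 4 lists was at 0 in either library. The part of these tissues in the ratios of mef2ca, mef2d and six1b was not tested.

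**Figure D4:**
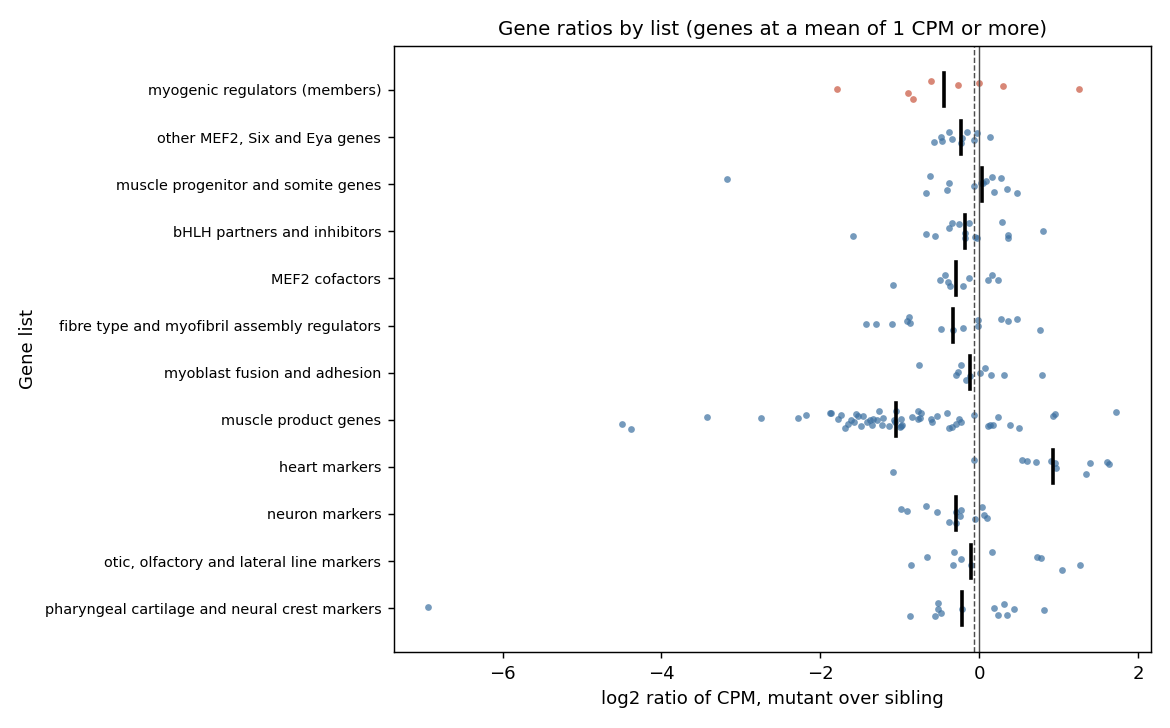
Log2 ratio of CPM, mutant over sibling, for every gene with a mean of 1 CPM or more in each list (points, spread vertically for sight), with the list's median as a black bar and the median of all genes as a dashed line. The members (red) spread from -1.79 to 1.26, the muscle product genes centre at -1.05 and the heart markers at 0.93.

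The authors' deposited table compares the same 2 libraries by a test not given in the sources used here. With 1 library per genotype, its FDR values are not printed. The authors' deposited table gave mymk a log2 fold change of -1.87, mef2ca of -0.93 and myf5 of 1.21. For the other members the authors' deposited table gave -0.90 (myog), -0.67 (myf6), -0.43 (mef2d), -0.06 (myod1) and 0.24 (six1b).

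RNA bisulfite sequencing of the same tissue, with 1 library per genotype, placed no differential 5-methylcytosine locus or region in any of the 8 members. The authors' deposited table held loci in only 92 genes, and that of regions held 51 genes, against 25522 genes in the Ribo-seq table. Finding none among 8 genes therefore says nothing particular to the members. Of the genes with loci, 3 were in the related lists, which with the members had 216 entries. These were looked up by exact symbol, which could miss the 6 entries matched in the Ribo-seq table only without case. The deacetylase gene hdac4, whose product represses Mef2 proteins, had 3 loci on chromosome 9 (GRCz11 positions 46154646, 46154665 and 46154683). Their differences in methylation fraction between condition 1 and condition 2 were 0.228, 0.248 and 0.248 in the authors' deposited table, the last 2 being the same value. The muscle enolase gene eno3 had 8 loci on chromosome 23, gathered into 1 region from 44617536 to 44617651. All 8 loci and the region carried the same difference of 0.471 in the authors' deposited table. Whether loci of equal value were measured separately was not tested, so they are not counted as independent sites. The desmin gene desma had 1 locus on chromosome 9 at position 7534499 with a difference of 0.730. The rows of both bisulfite files do not line up with their headers, and the differences were taken from the fields that equal the level of condition 1 minus that of condition 2. Which condition was the mutant is not given in the headers or labels, and exons were not analysed here. The footprint ratio of hdac4 was -0.21.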

How the data were processed

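The authors' deposited Ribo-seq table gave expected counts per gene, which were not whole numbers for 25.7% of genes and were rounded here, the authors' TPM, and the authors' log2 fold change and p-values adjusted as FDR. The deposited bisulfite tables gave a difference score between the methylation fractions of 2 conditions, and their positions, read as counted from 0, are printed from 1. Tools named, per the submitters' processing notes, were HISAT2, STAR, Bowtie2, methylKit, SAMtools, fastp and Trimmomatic 0.38, with the build GRCz11. The counting program, strand setting and annotation are not given in the sources used here.

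Log2 ratios of mutant over sibling CPM used counts plus 0.5, for genes averaging 1 CPM or more. Exact 95% Clopper-Pearson intervals conditional on the sum of both counts, Poisson intervals of single counts and conditional odds ratio intervals of 2 genes (scipy 1.17.1, Python 3.11.15) cover counting error only, and without molecular identifiers reads may repeat a molecule. No test was made with 1 library per genotype. Ratios and intervals were run on counts simulated with Poisson error, the error that the intervals assume. This checks the calculation and says nothing on repeated reads, shared reads or biological variation. TMM factors came from edgeR 4.0.16 and size factors from DESeq2 1.42.0, for scaling only. Of 216 list entries, 201 matched a symbol, 6 of them by letters without case. Members and lists were chosen with earlier results of these data known. Apart from members, each list is named by its most abundant gene and its highest and lowest ratio, and other genes are marked as picked afterwards. A gene picked by this rule is not reported here. Gene order came from RefSeq (GRCz12tu), without coordinates.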

Additional observations from a re-analysis of the deposited data

How the results depend on the processing

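No paired analysis was possible because each genotype had 1 library per assay, and for the same reason no replicate could be left out. The alternatives were TMM factors, DESeq2 size factors, totals without muscle product reads, the authors' TPM ratio, a pseudocount of 1, counts not rounded, no minimum and a minimum of 10 CPM. With a minimum of 10 CPM the numbers of members at least 2-fold lower and at least 2-fold higher were both 0, since myf5 and mymk lie under that minimum. Under the other alternatives both numbers stayed at 1. The median of the members ranged from -0.55 with the authors' TPM ratio to -0.38 with TMM factors, among the settings that kept all 8. With a minimum of 10 CPM, which kept 5 members, it was -0.27. List medians that moved by over 1.5 times did so with that minimum for fibre type regulators (-0.60), bHLH partners (-0.09) and otic, olfactory and lateral line markers (-0.27). The otic list's median was also -0.16 with no minimum, -0.19 with totals without muscle product reads, and -0.05 with TMM or DESeq2 factors. The fusion list's median was -0.06 with either set of factors, -0.20 with those totals and -0.17 with the authors' TPM ratio. The progenitor list's median, 0.04, was 0.09 with either set of factors, -0.05 with those totals and -0.04 with the TPM ratio. Over the scalings, pseudocounts and roundings, log2 ratios ran from 1.17 to 1.31 for myf5, 0.21 to 0.36 for six1b, -0.09 to 0.05 for myod1, -0.70 to -0.55 for myf6, -0.92 to -0.78 for myog, -0.99 to -0.84 for mef2ca and -1.88 to -1.74 for mymk. The ratio of mef2d was -0.27 and became -0.43 with the authors' TPM ratio, outside its counting interval, and the cause was not tested. Depth limits myf6, whose interval holds 0, and leaves wide intervals for myf5 and mymk.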
